A study of Mus musculus with 3 samples.

Results

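The 44 genes described here encode the chaperones of the mouse cytosol and mitochondria with their closest partners: the HSP70, HSP110, HSP90, J-domain and small heat shock proteins, the cytosolic chaperonin CCT, prefoldin, the mitochondrial chaperones, Bag3, and the heat shock factors Hsf1 and Hsf2. Each was found by its gene name, and each name matched 1 of the 55573 listed genes. Not every one fits the name in full. Hsf1 and Hsf2 are transcription factors, Bag3 is a cofactor of HSP70, and Hspa13 is known as a protein of microsomes.

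Levels were measured by UMI-RNAseq in 3 libraries of NIH3T3, a long-established mouse fibroblast line. No treatment is named for any library, and all cells were grown in DMEM with fetal bovine serum and antibiotics. According to the methods they were taken up with trypsin, washed, put into TRIzol and snap-frozen. No library is described as heat-shocked or otherwise stressed, so "stress-inducible" below is a class from general knowledge and not a response seen in these data. Whether the handling stressed the cells was not tested. The unit is FPKM, in which a gene's fragments are divided by its length in kilobases and by the library's counted fragments, in units of 1000000. A value given with ± is the mean and SD over the 3 libraries (n = 3). Separate cultures are not stated for the libraries, and the SD may therefore be technical in part or in whole. A UMI (unique molecular identifier) is a random tag put on each molecule ahead of the PCR, by which copies of 1 molecule are recognised and removed. The counted fragments recovered from the FPKM totalled 14423209, 13959723 and 14307241 in libraries 1, 2 and 3. The extraction text of the labels mentions retina, so marker genes were examined. All 8 fibroblast genes on a fixed list had an FPKM of at least 1, from S100a4 at 2.97 ± 0.208 to Fn1 at 4377 ± 86.1. Of 8 retina genes, 0 reached 1, with Rcvrn highest at 0.363 ± 0.225 and Nrl listed at 0.

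Chaperones bind proteins that are not yet folded, or no longer folded, and keep them from aggregating. HSP70 proteins grip exposed hydrophobic stretches and release them in cycles of ATP binding and hydrolysis, J-domain proteins bring the clients and start hydrolysis, and HSP110 proteins exchange the nucleotide. HSP90 acts later on kinases and receptors that are nearly mature, small heat shock proteins hold clients without ATP, and CCT folds actin and tubulin in a closed ring, to which prefoldin delivers them. In stressed cells HSF1 binds repeats of the unit nGAAn in promoters and raises a part of these genes, the stress-inducible ones, whereas the constitutive ones are made at all times.

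As a class these genes were abundant. A mean FPKM of at least 1 was reached by 41 of the 44 members (93.2%), against 23.2% of all listed genes. An FPKM of at least 100 was reached by 19 members, which is 46.3% of the 41, against 9.41% of all genes with a mean of at least 1. The median member lay at 74.0, and the median of all 12905 genes with a mean of at least 1 lay at 17.5. Together the members held 1.5% ± 0.0185 of the summed FPKM and 1.18% ± 0.0116 of all counted fragments. Their total was carried by few genes, since the 3 highest members held 42.5% of the members' summed FPKM and the 8 highest held 70.0%. These shares describe a list that was put together by name and were not tested.

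**Figure D1:**
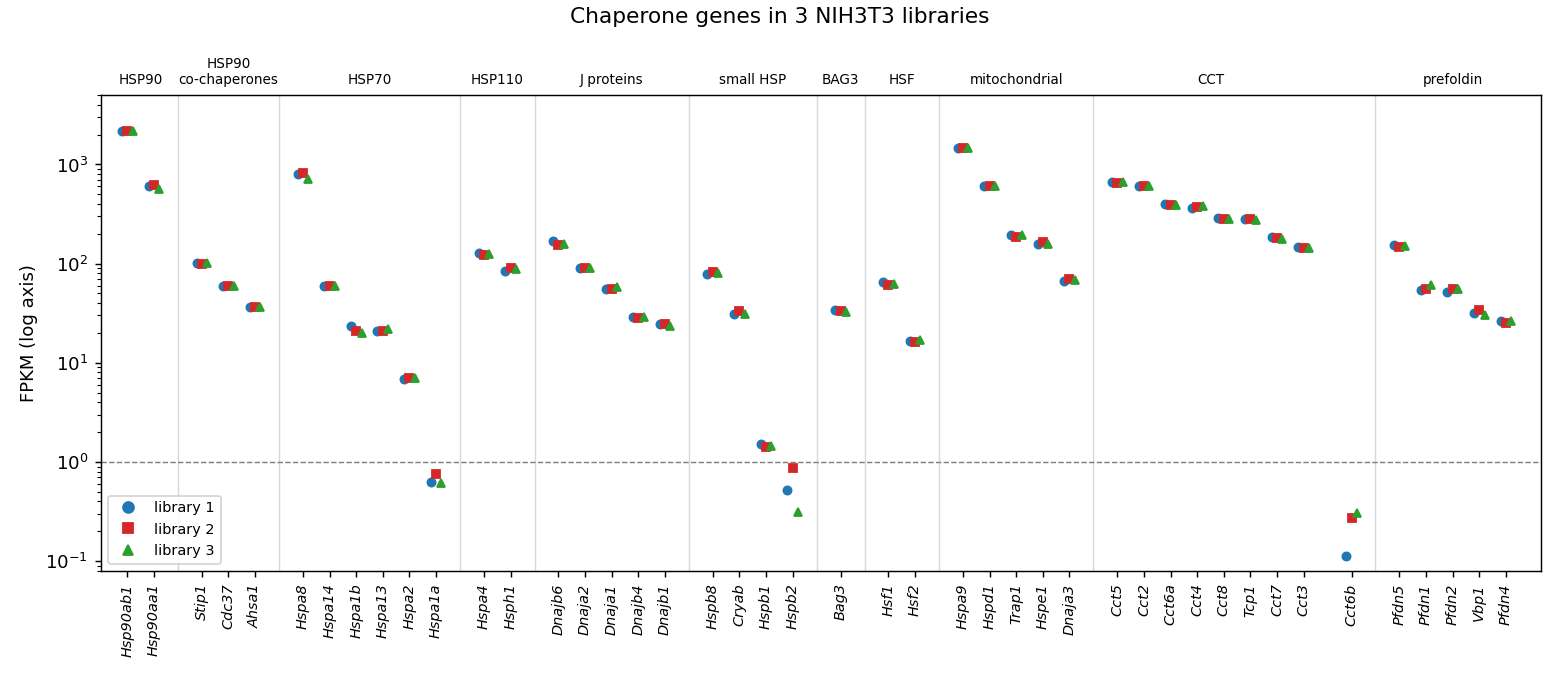
FPKM of the 44 members in libraries 1 (circles), 2 (squares) and 3 (triangles) on a log axis, grouped by family and ordered by mean level within a family. The dashed line marks 1 FPKM; only Hspa1a, Hspb2 and Cct6b have means below it, and Hsp90ab1 and Hspa9 stand highest at 2176 and 1456 FPKM.

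The plot of levels by family shows that members of 1 family could lie far apart, whereas the 3 libraries of 1 gene mostly lay close together. The median coefficient of variation (SD over mean) between libraries was 2.21% among the 41 members with a mean of at least 1. When the members were ordered by mean level, 15 of the 43 pairs of neighbours overlapped between libraries and so cannot be ordered beyond their spread. The 4 highest genes, Hsp90ab1, Hspa9, Hspa8 and Cct5, did not overlap with one another. Hspd1, Cct2 and Hsp90aa1 followed at 607 ± 2.45, 605 ± 4.44 and 595 ± 27.5, with overlapping values between neighbours. Levels between genes depend on the gene length by which the authors divided. The deposited values follow the mean length of a gene's annotated isoforms, and the longest isoform was over 1.5 times that mean in 30 of the 44 members, at most 3.19 times. With the length of the principal isoform (the main isoform named by the APPRIS annotation) in place of the mean, Hsp90ab1 came to 761 ± 7.36 and Hspa9 to 549.7 ± 3.47. The 7 highest genes kept their order under that length, but not with the longest isoform. There Hspa8 at 301 ± 22.1 lay below Cct5 at 349 ± 2.09 and Hspd1 at 318 ± 1.29.

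The most abundant member was an HSP90 gene. Hsp90ab1, the constitutive HSP90β of the cytosol (chr17:45567775-45573271, minus strand, in the GENCODE M21 annotation of GRCm38), had 2171, 2199 and 2157 FPKM in libraries 1, 2 and 3. It was the highest of the 44 members in every library and ranked 15 of the 12905 genes with a mean of at least 1. Hsp90aa1, the stress-inducible HSP90α (chr12:110690605-110702728, minus strand), had 606, 616 and 564. The ratio of Hsp90ab1 to Hsp90aa1 was 3.66 ± 0.144, or 1.87 ± 0.06 on the log2 scale, and Hsp90ab1 was the higher in 3 of 3 libraries. The exact permutation test by sign flips over the libraries, two-sided, gave p = 0.25, the smallest p that 3 libraries can give, so that no ratio within these libraries can pass 0.05. The same p, and 0.25 after Benjamini-Hochberg adjustment over 6 ratios, applies to each ratio tested below. Hsp90aa1 shared 42.8% of its 75-base words (the distinct stretches of 75 bases in its transcripts) with other annotated genes, mostly with the pseudogene Gm12346, whose own FPKM was between 4.27 and 4.53.

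The HSP90 co-chaperones were far below HSP90 itself. Stip1, which passes clients from HSP70 to HSP90, lay at 101 ± 0.778. Cdc37, which loads protein kinases, lay at 59.3 ± 0.158 and had the smallest coefficient of variation of all members, 0.266%. Ahsa1, the activator of the HSP90 ATPase, lay at 36.6 ± 0.281. The 3 co-chaperones did not overlap between libraries, but Ahsa1 (38.4 ± 0.294) lay above Cdc37 (24.6 ± 0.0655) with the principal isoform as length. The summed FPKM of both HSP90 genes was 27.4 ± 0.616 times that of Stip1, 46.7 ± 0.748 times that of Cdc37 and 75.6 ± 0.701 times that of Ahsa1. With the principal isoform these factors were 9.66 ± 0.219, 39.6 ± 0.643 and 25.4 ± 0.241.

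Within the HSP70 family outside the mitochondria 1 gene carried most of the FPKM. Hspa8, the constitutive HSC70 (chr9:40800984-40810087, plus strand), had 799, 812 and 708 in libraries 1, 2 and 3, a mean of 773 ± 56.8. Libraries 1 and 2 lay close together and library 3 lay lower. Hspa14, a ribosome-associated HSP70, followed at 59.8 ± 0.383. Hspa13, the protein of microsomes and so not a cytosolic form, lay at 21.2 ± 0.445. Hspa2, known best for its role in spermatogenesis, lay at 6.96 ± 0.0813. The sum over the 6 HSP70 genes, Hspa13 included, was 883 ± 58.0.

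The stress-inducible HSP70 is encoded by a pair of nearly identical genes, Hspa1a (chr17:34969190-34972156, minus strand) and Hspa1b (chr17:34956436-34959238, minus strand), whose starts lie 12918 nt apart. Each is a gene with 1 annotated isoform. Their promoter windows are shown because they match almost letter for letter, and yet the genes were read at very different levels. The windows run from 250 bases before to 50 bases after the RefSeq start on GRCm38.p6, on the minus strand, at chr17:34972107-34972406 for Hspa1a and chr17:34959189-34959488 for Hspa1b. Capitals mark a pair of facing heat shock units, GAANNTTC or TTCNNGAA, each of which reads the same on both strands.
Hspa1a: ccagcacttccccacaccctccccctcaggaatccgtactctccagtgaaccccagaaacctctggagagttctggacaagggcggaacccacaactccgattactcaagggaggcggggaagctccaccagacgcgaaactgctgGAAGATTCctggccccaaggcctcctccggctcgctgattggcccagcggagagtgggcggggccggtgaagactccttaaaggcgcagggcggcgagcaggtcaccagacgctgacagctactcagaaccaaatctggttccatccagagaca
Hspa1b: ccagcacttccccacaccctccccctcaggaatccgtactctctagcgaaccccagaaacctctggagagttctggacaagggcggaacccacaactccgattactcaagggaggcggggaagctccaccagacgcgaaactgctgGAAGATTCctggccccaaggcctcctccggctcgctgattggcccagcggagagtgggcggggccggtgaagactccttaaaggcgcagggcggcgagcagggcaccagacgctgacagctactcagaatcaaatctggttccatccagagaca
The windows differed at 4 of 300 positions and were 98.7% identical, and both held the same marked pair. The coding sequences, 1923 and 1926 nt long without the stop codon, were 99.5% identical, with 7 substitutions and 3 gap bases. By contrast, 0% of the 75-base words after the coding sequence of Hspa1a occurred in Hspa1b.

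Hspa1b had an FPKM of 23.6, 21.0 and 19.9 in libraries 1, 2 and 3. Hspa1a had 0.631, 0.748 and 0.612, which rest on 27, 31 and 26 fragments. The groups of values did not overlap, and Hspa1b was the higher in 3 of 3 libraries, by a factor of 32.7 ± 4.65. The exact Poisson 95% interval of Hspa1a in library 2, its highest, was 0.509 to 1.06 FPKM, which covers counting error only. Since 55.8% of the words of Hspa1b and 61.7% of those of Hspa1a occur in another gene, a fragment from the coding part often cannot be assigned to 1 of them. How such reads were treated is not given in the sources used here. With the number of unshared words taken as each gene's length, which was tried after the data had been seen, the factor was 28.4 ± 4.04.

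Hspa8 was 33.0, 37.3 and 34.5 times the sum of Hspa1a and Hspa1b in libraries 1, 2 and 3, a mean of 34.9 ± 2.20, or 5.12 ± 0.09 on the log2 scale. The constitutive form was thus the higher in 3 of 3 libraries (exact sign-flip permutation p = 0.25). The size of the ratio depended on gene length. Its log2 value was 3.76 with the longest isoform, 4.16 with the principal isoform and 2.47 with unshared words as length, each with Hspa8 higher. These words are counted over all isoforms of a gene. For Hspa8, with 10 isoforms, their number of 3304 exceeds the longest isoform of 3158 nt, whereas Hspa1a and Hspa1b have 1 isoform each. The value of 2.47 thus mixes the number of isoforms with shared sequence and does not measure the effect of sharing.

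The HSP110 genes, which serve HSP70 as nucleotide exchange factors, were closer to each other. Hspa4, the constitutive form, had 129, 123 and 124 FPKM in libraries 1, 2 and 3. Hsph1, the stress-inducible HSP105, had 84.8, 90.6 and 89.3. Their values did not overlap, and Hspa4 was 1.42 ± 0.0888 times Hsph1 and higher in 3 of 3 libraries (0.51 ± 0.09 on the log2 scale, exact sign-flip permutation p = 0.25). With the longest isoform the log2 ratio was 1.06. Hspa8 stood at 3.62 ± 0.262 times the sum of both.

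The promoter of Hsph1 is shown as the inducible gene of this pair, since it is 1 of only 4 members whose promoter window holds 3 alternating heat shock units in a row. The window is chr5:149636266-149636565 on the minus strand (GRCm38.p6, RefSeq). Capitals mark the pairs and triplets of units.
Hsph1: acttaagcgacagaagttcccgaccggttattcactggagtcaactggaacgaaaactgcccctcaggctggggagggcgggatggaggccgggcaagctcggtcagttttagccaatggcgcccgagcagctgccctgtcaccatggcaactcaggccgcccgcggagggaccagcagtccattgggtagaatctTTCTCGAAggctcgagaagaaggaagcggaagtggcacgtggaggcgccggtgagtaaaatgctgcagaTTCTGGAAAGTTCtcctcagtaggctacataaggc
It held 3 pairs of units, and the marked stretch nearest to the 3′ end was a triplet, which lies after the RefSeq start. The other window of Hsph1, chr5:149636287-149636586, held the same triplet, also after its start.

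The J-domain proteins, which select clients for HSP70, together reached less than Hspa8 alone. The 5 cytosolic members summed to 360.0 ± 6.75, and Hspa8 was 2.15 ± 0.163 times that sum. Dnajb6, a suppressor of aggregation of polyglutamine proteins, was the highest at 159.8 ± 6.60, with 167 in library 1 and 156 in each of libraries 2 and 3. Dnaja2, a constitutive class A J protein, lay at 90.6 ± 0.439. Dnaja1, its relative that is farnesylated like it, lay at 56.6 ± 1.85. Dnaja2 was 1.60 ± 0.0488 times Dnaja1 and higher in 3 of 3 libraries (0.68 ± 0.04 on the log2 scale, exact sign-flip permutation p = 0.25). The longest and the principal isoform both gave a log2 ratio of 1.55. Dnaja1 also shares 608 exonic bases with Smu1 on the opposite strand, and whether counting used the strand is not given in the sources used here. The stress-inducible class B proteins Dnajb4 and Dnajb1, the latter HSP40, were lowest at 28.7 ± 0.546 and 24.3 ± 0.674. Dnajb6 was 6.58 ± 0.223 times Dnajb1, and 2.11 ± 0.0716 times with the longest isoform. The order of the J proteins depended on length, since Dnaja2 at 53.2 lay above Dnajb6 at 50.2 with the longest isoform, and Dnaja1 was the lowest at 18.2 with the principal isoform.

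The small heat shock proteins covered a wide range of levels. Hspb8, the partner of Bag3 in removing misfolded proteins, had 78.0, 81.5 and 80.4 FPKM in libraries 1, 2 and 3. Cryab, αB-crystallin, had 31.2, 33.1 and 30.9. Hspb1, known as HSP25 in the mouse, was close to 1 FPKM, at 1.51, 1.41 and 1.45, which rest on 20, 18 and 19 fragments. Hspb8 was 55.0 ± 3.21 times and Cryab 21.9 ± 1.52 times Hspb1. Of the words of Hspb1, 46.4% also occur in Hsp25-ps1, a pseudogene listed at 0 in all 3 libraries. Hspb2, a small heat shock protein of muscle, had 5, 8 and 3 fragments (0.568 ± 0.277 FPKM). It lies head to head with Cryab on the opposite strand and shares 252 exonic bases with it, 30.2% of its exonic length. Without strand, fragments from that stretch cannot be told apart. Bag3, the nucleotide exchange factor that joins Hspb8 to HSP70, lay at 33.4 ± 0.738.

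The heat shock factors themselves were expressed. Hsf1, the main activator of the response, lay at 63.1 ± 2.29. Hsf2, which can pair with HSF1, lay at 16.6 ± 0.293. Hsf1 was 3.81 ± 0.138 times Hsf2.

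Set side by side as classes, the constitutive members were higher at the median than the inducible ones, but the classes overlapped. The constitutive list held Hspa8, Hsp90ab1, Hspa4, Hspa14, Dnaja2, Cdc37, Stip1 and Dnajb6, and the inducible list held Hspa1a, Hspa1b, Hsph1, Hspb1, Dnajb1, Hsp90aa1, Bag3, Cryab, Hspb8 and Dnajb4. The lists are a choice, and the place of single genes such as Stip1 can be disputed. Dnajb6, listed as constitutive, holds a triplet of heat shock units. Hspa2 at 6.96, Hspa13 at 21.2, Dnaja1, Hspd1 and Hspe1, among others, are in neither list. Other choices of members were not tested. All 8 constitutive members had a mean of at least 10, from Cdc37 at 59.3 to Hsp90ab1 at 2176, and 5 of them reached 100. Of the 10 inducible members, 9 reached 1, 8 reached 10 and 1 reached 100. That 1 was Hsp90aa1, whose 595 ± 27.5 FPKM exceeded every constitutive member except Hsp90ab1 and Hspa8. The median of the constitutive list was 113 and that of the inducible list 30.3, beside 17.5 over all genes with a mean of at least 1. Within the libraries the ratio of the medians was 3.84, 3.64 and 3.74, a mean of 3.74 ± 0.0991 (1.90 ± 0.04 on the log2 scale), with the constitutive median higher in 3 of 3 libraries (exact sign-flip permutation p = 0.25). With the longest isoform as length the log2 ratio was 1.43, and with the mean of each list in place of its median it was 2.29.

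**Figure D2:**
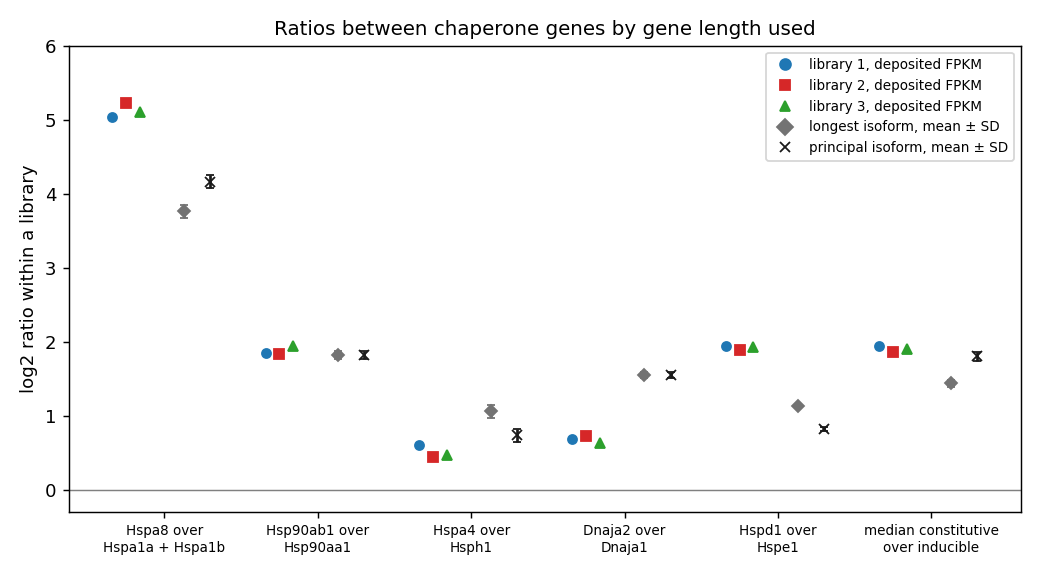
Log2 ratio within a library for 5 pairs of genes and for the medians of the constitutive and inducible lists. Coloured points are libraries 1 to 3 with the deposited FPKM, and grey diamonds and black crosses are the mean ± SD with the longest and the principal isoform as length. All points lie above 0, the line of equal levels, and the choice of length moves the ratio of Hspa8 to Hspa1a plus Hspa1b from 5.12 down to 3.76 and that of Dnaja2 to Dnaja1 from 0.68 up to 1.55.

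The plot of the log2 ratios shows that the libraries lay close to one another for each pair, and that the change of gene length moved most pairs further than the libraries differed. Hsp90ab1 to Hsp90aa1 was the exception, with 1.87 for the deposited length and 1.82 for both others.

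Heat shock units were counted in the promoter windows of 34 members that RefSeq lists on GRCm38.p6. Hsp90aa1, Hsp90ab1, Hspa8, Hspa9, Hspa13, Cct4, Pfdn1, Cryab, Hspb2 and Hsf1 had no window in that table. A pair was found in at least 1 window for 15 of these 34 members (44.1%), against 17.0% of all 27025 genes with a window. A triplet, GAANNTTCNNGAA or TTCNNGAANNTTC, was found for 4 (11.8%), namely Hspd1, Hspe1, Hsph1 and Dnajb6, against 0.662% of all genes. Counted by window, 17 of the 44 member windows held a pair and 6 a triplet, against 15.1% and 0.603% of all 32851 windows. Hspd1 and Hspe1 share their run of units, so they do not count as separate sequences. The same holds for Hspa1a and Hspa1b, whose windows are 98.7% identical and hold the same pair. Among the inducible members with a window, 7 of 8 held a pair (Bag3, Dnajb4, Hspa1a, Hspa1b, Hspb1, Hspb8 and Hsph1). Among the constitutive ones 2 of 6 did, Cdc37 and Dnajb6. Both lists were chosen from general knowledge, and Hsp90aa1, Cryab, Hspa8 and Hsp90ab1 are missing from these counts. No contrast between the lists is therefore read from them. Of the CCT subunits 3 of 7 with a window held a pair (Cct2, Cct5 and Cct6a), and of the prefoldin subunits 0 of 4. Such a match describes the letters in the window and does not show a bound site. The inducible members with a pair lay anywhere between 0.664 FPKM for Hspa1a and 88.3 FPKM for Hsph1.

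Of the mitochondrial members the HSP70 gene was the highest. Hspa9, or mortalin, which pulls proteins through the inner membrane and folds them in the matrix, had 1450.1, 1452 and 1467 FPKM in libraries 1, 2 and 3. Its highest library was 1.01 times its lowest, and Hspa9 was 1.89 ± 0.157 times Hspa8, its cytosolic relative. Dnaja3, the J protein that works with Hspa9, lay at 68.2 ± 1.13, and Hspa9 was 21.4 ± 0.412 times Dnaja3, or 12.5 ± 0.241 times with the principal isoform. With the principal isoform Hspa9 was 1.39 ± 0.116 times Hspa8. Hspa8 shares 33.0% of its words with other genes and Hspa9 0.227%, and the effect of this on the ratio was not tested. Trap1, the mitochondrial HSP90, lay at 192 ± 4.28, and Hsp90ab1 was 11.3 ± 0.366 times Trap1.

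Hspd1 (HSP60, chr1:55077835-55088243, minus strand) and Hspe1 (HSP10, chr1:55088132-55091307, plus strand) encode the barrel and the lid of the mitochondrial chaperonin and start back to back from a common region. A stretch of it is shown because it holds every pair of heat shock units found in the windows of either gene. It lies before the start of Hspe1 and before the inner of 2 RefSeq starts of Hspd1, whereas the window of the outer start of Hspd1 (chr1:55088194-55088493) held 0 pairs. The window below is that of Hspe1, chr1:55087898-55088197 on the plus strand (GRCm38.p6, RefSeq), and 285 of its bases also lie in a window of Hspd1. Capitals mark the run of heat shock units.
Hspe1: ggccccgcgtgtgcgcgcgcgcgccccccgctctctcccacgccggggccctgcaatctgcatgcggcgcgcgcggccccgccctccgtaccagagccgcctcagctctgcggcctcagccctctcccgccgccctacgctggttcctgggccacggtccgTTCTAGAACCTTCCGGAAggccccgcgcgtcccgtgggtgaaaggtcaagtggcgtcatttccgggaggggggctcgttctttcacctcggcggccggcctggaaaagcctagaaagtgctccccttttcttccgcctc
The run holds 3 overlapping pairs and 2 triplets.

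Hspd1 had 608, 609 and 604 FPKM in libraries 1, 2 and 3. Hspe1 had 159, 165 and 159. Hspd1 was thus 3.77 ± 0.0767 times Hspe1 and higher in 3 of 3 libraries (log2 ratio of Hspe1 to Hspd1 of -1.91 ± 0.03, exact sign-flip permutation p = 0.25). The ratio depended on length. With the longest isoform the log2 ratio was -1.13, and with the principal isoform it was -0.82, a factor of 1.76 ± 0.0358. Hspd1 shares 31.0% of its words with other genes, and 112 exonic bases of the pair overlap on opposite strands. With unshared words as length the log2 ratio was -1.84. Here too the words are counted over all isoforms, and for Hspe1 their number of 1196 exceeds its longest isoform of 964 nt.

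The cytosolic chaperonin CCT is a double ring in which 8 different subunits occur in equal number, so the evenness of their transcripts was described. All 8 were abundant, with every subunit above 100 FPKM at the deposited lengths and a sum of 2919 ± 5.29. Cct5 was the highest at 659, 655 and 663 FPKM in libraries 1, 2 and 3. Cct2 followed at 600.0, 608 and 607. Cct6a lay at 393 ± 6.12, Cct4 at 374 ± 5.62, Cct8 at 283 ± 3.18 and Tcp1, the first subunit named, at 279 ± 6.20. Cct7 lay at 181 ± 5.35, and Cct3 was the lowest at 146, 144 and 145. Of neighbours in this order only Cct8 and Tcp1 overlapped between libraries. The subunits were therefore not even, since Cct5 was 4.55 ± 0.0232 times Cct3, and this unevenness was alike in all 3 libraries.

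Expressed as a percentage of the mean over the 8 subunits, the levels ran from 181% ± 1.09 for Cct5 and 166% ± 1.52 for Cct2 to 49.7% ± 1.38 for Cct7 and 39.7% ± 0.235 for Cct3. The coefficient of variation over the subunits was 50.2%, 50.9% and 51.5% in libraries 1, 2 and 3, a mean of 50.9% ± 0.661. The effective number of subunits (the exponential of the Shannon entropy of their shares, which is 8 for equal levels) was 7.15 ± 0.0206. The order at the lower end depended on length. With the principal isoform Cct8 was the lowest at 66.2% of the mean, Cct3 came to 70.1%, and the highest subunit was 3.02 ± 0.0359 times the lowest. Cct5 and Cct2 were the 2 highest under each of the 3 lengths. Cct6b, the testis form that replaces Cct6a, was almost absent, with 3, 7 and 8 fragments (0.231 ± 0.103 FPKM). Some subunits overlap other genes on the opposite strand. Tcp1 shares 571 exonic bases with Acat3, and Cct6a shares 452 with Psph, a gene at 94.0 to 101 FPKM. The effect of such overlaps on the evenness was not tested.

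Prefoldin, the hexamer that hands actin and tubulin to CCT, was lower, and at the deposited lengths less even. Pfdn5, also known as MM-1 for its binding to MYC, was the highest of the 5 members at 155, 147 and 149.6 FPKM in libraries 1, 2 and 3. Pfdn1 lay at 56.7 ± 3.03 and Pfdn2 at 54.1 ± 2.31, with overlapping values. Vbp1, the third prefoldin subunit, which binds the von Hippel-Lindau protein, lay at 32.1 ± 1.78, and Pfdn4 at 26.0 ± 0.555. Pfdn5 was at 236% ± 6.37 of the mean over the subunits, and the 4 others lay between 40.7% ± 0.740 and 88.7% ± 4.10. The ratio of Pfdn5 to Pfdn4 was 5.79 ± 0.0672, and the effective number of subunits was 4.04 ± 0.0523 of 5. Pfdn5 shares 165 exonic bases with Myg1 on the same strand, a gene at 46.0 to 48.1 FPKM. On the opposite strand Pfdn4 shares 639 exonic bases (25.4%) with Gm16796, listed at 0. Pfdn2 shares 535 (27.6%) with Klhdc9, at most 0.0449 FPKM, also on the opposite strand. Whether counting used the strand is not given, and the part of these overlaps in the unevenness was not tested.

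The mean CCT subunit was 5.71 ± 0.0492 times the mean prefoldin subunit. The coefficient of variation over the prefoldin subunits was 82.2%, 76.7% and 77.3% in libraries 1, 2 and 3, a mean of 78.8% ± 3.02. It exceeded that of CCT by 32.1, 25.9 and 25.8 percentage points, a mean of 27.9 ± 3.60, and was higher in 3 of 3 libraries (exact sign-flip permutation p = 0.25, the smallest possible). With the longest isoform the difference was 7.45 ± 3.11 points, and with the principal isoform it was 19.2 ± 3.15 points. The ratio of the highest to the lowest subunit was larger for prefoldin at the deposited lengths and with the principal isoform. With the longest isoform that ratio was larger for CCT, at 4.81 ± 0.0461 against 4.68 ± 0.0543. The sixth prefoldin subunit, Pfdn6, is not on the list and had 35.5 ± 1.88 FPKM, and with it the coefficient of variation was 78.6%.

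**Figure D3:**
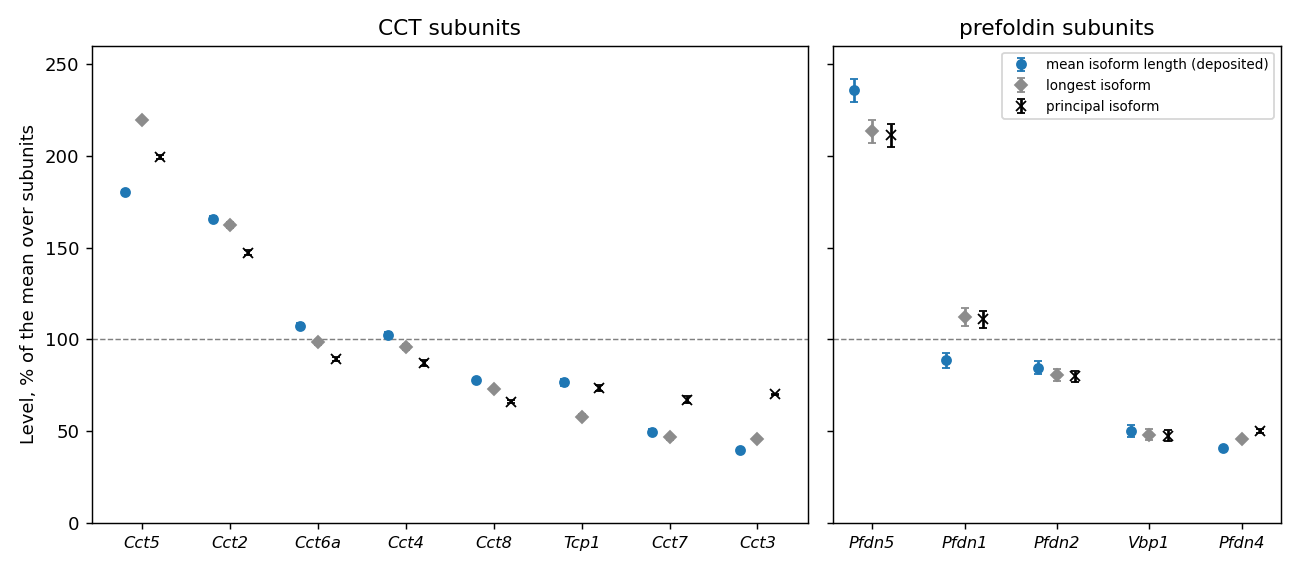
Level of each CCT subunit (left) and prefoldin subunit (right) as a percentage of the mean over the subunits of its complex, mean ± SD over 3 libraries, for the deposited FPKM (circles) and with the longest (diamonds) or principal isoform (crosses) as length. The dashed line at 100% marks even levels; Cct5 at 181% and Pfdn5 at 236% stand highest, Cct3 at 39.7% and Pfdn4 at 40.7% lowest with the deposited lengths.

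The plot of subunit levels shows that Cct5, Cct2 and Pfdn5 lay at 147% of their complex's mean or higher whichever length was used, whereas the lower subunits changed places.

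The 3 libraries are replicates of 1 condition, so differences between them were only described. For each gene the fragments were set against the library totals with a chi-square statistic, and a value over its 95% limit of 5.99 was read as a spread beyond counting error. This was the case for 6 of the 41 members with a mean of at least 1 (14.6%), against 9.72% of all such genes. Among genes with at least 3000 fragments, where smaller differences can be seen, it was 5 of 28 members (17.9%) against 13.9%. These differences amount to a few genes, and nothing particular to the members is read from them. The 6 were Hspa8, Hsp90aa1, Hspa1b, Hspa4, Cct7 and Dnajb6. Hspa4, Cct7 and Dnajb6 exceeded the limit narrowly, with chi-square values of 7.28, 7.18 and 7.15, and each was highest in library 1.

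Hspa8 stood out, with 14172, 13941 and 12452 fragments in libraries 1, 2 and 3. Library 3 deviated by -8.41% from the rate of the pooled libraries, and the chi-square value of 146 was at percentile 99.7 of all genes with a mean of at least 1. The highest library was 1.15 times the lowest, and without library 3 it was 1.02 times. Hsp90aa1 had the same order, with 10358, 10196 and 9568 fragments and a chi-square value of 42.9. Its highest library was 1.09 times its lowest, and 1.02 times without library 3. Hspa1b had 953, 822 and 799 fragments and a chi-square value of 13.1. Its highest library was 1.18 times its lowest, and 1.05 times without library 1. All 6 members were above the pooled rate in library 1, and 0 of them in library 3. The same count was not made for the other genes over the limit, so nothing particular to the members is read from it. By contrast, Hsp90ab1 and Hspa9, the most abundant members, had a highest library of 1.02 and 1.01 times their lowest.

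**Figure D4:**
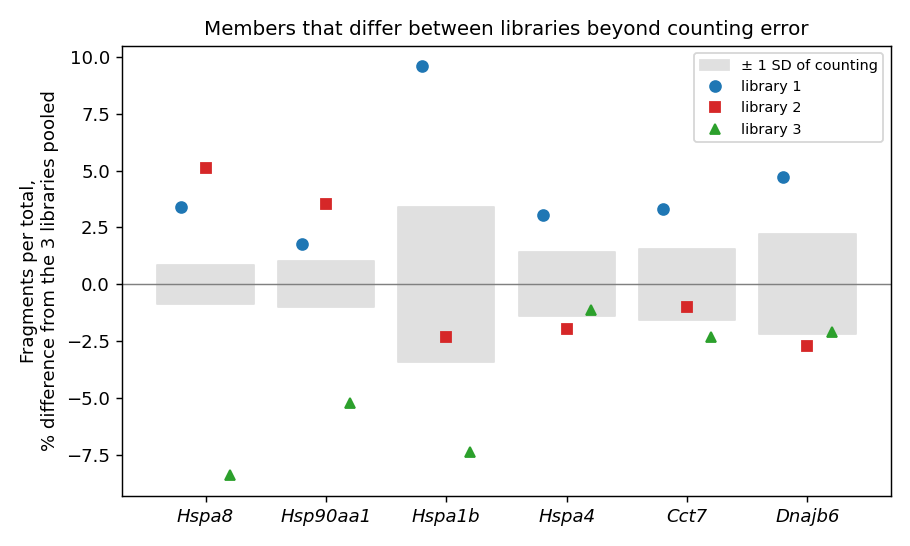
Deviation of each library's fragments per library total from the rate of the 3 libraries pooled, in percent, for the 6 members whose spread exceeded counting error. Grey boxes span ± 1 SD of counting error; Hspa8 and Hsp90aa1 are low in library 3, at -8.41% and -5.22%, and Hspa1b is high in library 1, at 9.58%.

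Hspa8, Hsp90aa1 and Hspa1b share 33.0%, 42.8% and 55.8% of their words with other genes. Of the 5 members with a mean of at least 1 that share over 30%, these 3 had a spread beyond counting error. Of the 36 others, 3 had one, among them Hspa4, which shares 0% and exceeded the limit narrowly. Hspd1 and Hspb1, which share 31.0% and 46.4%, had none. Hspb1 rests on 20, 18 and 19 fragments, too few to show a spread of this size. The share of words was not computed for all genes, so no pattern is read from these values. The pseudogenes and other genes outside the list that share words with Hspa8 held 123, 127 and 109 fragments in libraries 1, 2 and 3, whereas the fragments of Hspa8 in library 3 differed from the number its pooled rate gives by -1143. Those that share words with Hsp90aa1 held 149, 148 and 156 fragments, beside a difference of -527 fragments in library 3. The part of shared sequence in the differences between libraries was not tested. These counts cannot measure it, since reads with several matches may have been counted at no gene.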

How the data were processed

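UMI-RNAseq of 3 NIH3T3 libraries was used as deposited. Per the methods and the submitters' processing notes, paired reads of 150 nt were handled with UMI-tools 1.0.0, HISAT2 2.0.4 and HTSeq 0.6.1 (the notes also name DESeq 1.10.1), with duplicates removed by position and UMI. The authors then divided by gene length and library total and deposited FPKM. The build and annotation used for counting, the use of strand and the treatment of reads with several matches are not given in the sources used here. Both deposited tables hold the same values, and 0 columns of values were left unused.

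No count model was used on the FPKM. Fragments were recovered (Python 3.11.15, numpy 2.4.6, pandas 2.3.3) as FPKM times mean isoform length in GENCODE M21 (GRCm38) times library total, which was taken from genes with 1 isoform. Within 0.01 of a fragment, 25969 of 26193 genes with a value came out whole (99.1%), among them all 44 members. The totals of 13959723 to 14423209 fragments set the counting precision. Ratios were taken within a library, without a pseudocount, and tested by permutation with exact sign flips. Poisson intervals are from scipy 1.17.1. Shared sequence is the share of a gene's distinct 75-base words found in a transcript of another gene. The calculations were tested on simulated data, and figures were drawn with matplotlib 3.10.9.

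Members, lists, tests and alternatives were chosen with earlier results of these data known. All 44 members are named, and other pathway genes are given by counts with the highest and lowest. The alternatives were leaving out each library, other lengths, scalings, pseudocounts, limits and lists. The principal isoform and unshared words as length were added after the data had been seen. Cct6a has no principal isoform, so its longest was used.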

Additional observations from a re-analysis of the deposited data

How the results depend on the processing

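The 11 summary results were recomputed 70 times under the alternatives. In 66 cases the value kept its direction and its side of the threshold, or moved by less than the spread between libraries, and 0 were reversed. The 4 others were the coefficients of variation over the subunits, which depended on gene length: over CCT it was 61.6% with the longest and 48.1% with the principal isoform, and over prefoldin 69.1% and 67.4%. The 66 include large changes of size, such as the difference of these coefficients, which fell from 27.9 to 7.45 points with the longest isoform. They also include the counts of members, which have no direction, so the tally is no measure of stable size. The ratio of the highest to the lowest subunit is not among the 11 results. Its order between CCT and prefoldin changed with the longest isoform. The 6 ratios kept their direction with the longest and the principal isoform, as did the 2 recomputed with unshared words as length, but no p could pass 0.05, so the p-values say nothing about stability. Leaving out each library in turn gave between 4 and 6 members with a spread beyond counting error, with 4 when library 1 or library 3 was left out. The number of members with a mean FPKM of at least 1 was 41 without any 1 library, 44 with a limit of 0.1 FPKM and 39 with a limit of 10. Of 308 recomputed member levels, 112 moved by more than the spread between libraries: 35 with the longest isoform, 34 with the principal isoform, 43 when values were rescaled to 1000000 per library, and 0 with median-of-ratios scaling or without 1 library. The genes that share at least 50% of their words with Hspa8 (5 genes) or Hspa1a (1 gene) were listed at 0, so adding them changed no ratio. Levels of Hspa1a, Hspb1, Hspb2 and Cct6b rest on at most 31 fragments per library, which limits what can be said of them. Ratios are paired within a library. No paired analysis of groups or replicate block was possible because the libraries form 1 group.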

Other observations

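Beyond the members, 41 other genes of the chaperone network were given by a fixed list (co-chaperones of HSP70 and HSP90, further J proteins and small heat shock proteins, mitochondrial proteases and cofactors, and Hsf4). Of these, 36 had a mean FPKM of at least 1, 30 reached 10 and 6 reached 100, and 1 was listed at 0. Their median was 36.1 FPKM. The highest was St13, the HSP70-interacting protein HIP, at 177 ± 1.77, and the lowest was Cryaa, the lens crystallin αA, listed at 0 in all 3 libraries.

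The relatives of HSP70 and HSP90 in the endoplasmic reticulum were set beside the members. Hspa5, or BiP, had 3664 ± 18.4 FPKM, 4.76 ± 0.354 times Hspa8, and Hspa9 was 0.397 ± 0.00402 times Hspa5. Of the 3 HSP70 genes that serve as the main form of a compartment, the order at the deposited lengths was thus endoplasmic reticulum, mitochondria, cytosol. With the principal isoform Hspa9 was only 1.39 ± 0.116 times Hspa8. Hspa8 shares 33.0% of its words with other genes, and how such reads were counted is not given, so the order of these 2 is uncertain. For HSP90 the order was another: Hsp90ab1 of the cytosol was 5.71 ± 0.152 times Hsp90b1 (GRP94), at 381 ± 7.73, which in turn was 1.99 ± 0.0434 times Trap1 of the mitochondria. With the principal isoform as length Hsp90ab1 was 3.49 ± 0.093 times Hsp90b1. These ratios were not tested.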
